A study of Mus musculus with 6 samples.

Results

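Prostanoids are short-range signalling lipids made from arachidonic acid, and 9 genes of their synthesis and reception were followed here in cultured mouse aortic cells: Pla2g4a, Ptgs1, Ptgs2, Ptgis, Ptges, Ptgds, Ptgir, Ptger4 and Tbxa2r. Members were the probe sets that the array's annotation assigns to one of these symbols. That gave 13 of 45101 probe sets on the array and 8 of the 9 genes, out of 18193 genes in all, and Ptgs1 is named here without values. A gene was tested where its brightest probe set had a mean at or above the median over non-control probe sets, a signal of 194. Of the 8 genes, 7 did so and Ptgds did not.

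The transgenic group held 3 cultures labelled primary aortic endothelial cells. Their mice express human PPARG with the dominant negative change V290M from the endothelial CDH5 promoter. The other group held 3 cultures from non-transgenic mice, and all mice are labelled strain C57, with no age or sex given and no treatment. Each culture pooled the cells of 2 mice, 5 cultures were grown per group, and each of the 6 arrays measured 1 culture on an Affymetrix whole-genome mouse expression array. The comparison asked which transcripts differ when endothelial PPARG function is disturbed.

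In this pathway, cytosolic phospholipase A2 (Pla2g4a) frees arachidonic acid from membranes, and the cyclooxygenases Ptgs1 and Ptgs2 turn it into a common endoperoxide precursor. Terminal synthases then decide the product. Ptgis makes prostacyclin, Ptges makes prostaglandin E2 and Ptgds makes prostaglandin D2. In the vessel wall prostacyclin acts through its receptor Ptgir, which raises cyclic AMP, relaxes smooth muscle and restrains platelets. The prostaglandin E2 receptor Ptger4 also raises cyclic AMP, whereas the thromboxane receptor Tbxa2r constricts vessels. Ptgs1 is known as the form present in resting cells, and Ptgs2 as the form induced by cytokines and growth factors.

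The promoter windows of Ptgs2 and Tbxa2r are shown because these genes, among the members tested, lay farthest from the non-transgenic level in transgenic replicates 1 and 2, on opposite sides. RefSeq's table (GRCm38.p6) holds 250 bases before and 50 after each gene start, and 8 of the 9 genes, all but Ptgis, had an entry. The array files name no genome build. Capitals mark every match, on either strand, to the motifs searched: the E-box CACGTG, the cyclic AMP response half-site ACGTCA and full element TGACGTCA, the C/EBP palindrome TTGCGCAA, an NF-kappaB motif, the nuclear receptor half-site AGGTCA, the PPAR direct repeat (that half-site repeated with 1 base between), the AP-1 motif TGANTCA, the GC box GGGCGG and the TATA box TATAAA.
Ptgs2, chr1:150099781-150100080, plus strand: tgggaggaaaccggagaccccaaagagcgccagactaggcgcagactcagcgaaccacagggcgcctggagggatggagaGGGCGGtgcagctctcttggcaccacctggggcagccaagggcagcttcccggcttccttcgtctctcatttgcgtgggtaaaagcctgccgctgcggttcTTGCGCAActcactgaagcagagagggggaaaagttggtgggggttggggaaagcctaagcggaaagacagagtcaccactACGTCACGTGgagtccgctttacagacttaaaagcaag
Tbxa2r, upstream start, chr10:81328018-81328317, plus strand: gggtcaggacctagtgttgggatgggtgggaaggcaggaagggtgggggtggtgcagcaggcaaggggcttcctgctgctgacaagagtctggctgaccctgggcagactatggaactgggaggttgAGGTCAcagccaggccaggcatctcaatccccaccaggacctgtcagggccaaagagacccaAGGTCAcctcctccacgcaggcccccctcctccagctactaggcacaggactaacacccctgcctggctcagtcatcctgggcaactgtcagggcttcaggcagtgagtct
Tbxa2r, downstream start, chr10:81328453-81328752, plus strand: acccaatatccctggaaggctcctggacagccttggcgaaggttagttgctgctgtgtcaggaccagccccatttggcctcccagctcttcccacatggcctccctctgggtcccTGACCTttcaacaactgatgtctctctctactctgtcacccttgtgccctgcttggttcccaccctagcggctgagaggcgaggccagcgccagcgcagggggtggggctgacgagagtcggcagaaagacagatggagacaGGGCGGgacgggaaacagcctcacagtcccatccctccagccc

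The Ptgs2 window held a GC box, the C/EBP palindrome, and a cyclic AMP half-site that overlaps an E-box. Of 32851 promoter windows in the table, 0.183% held the C/EBP palindrome, 7.51% the half-site, 7.15% the E-box and 35.7% a GC box. The upstream Tbxa2r window held 2 nuclear receptor half-sites and the downstream one held 1, on the opposite strand, with a GC box. Such a half-site was present in 16.3% of all windows. No member's window held the direct repeat, which 0.0396% of all windows held. Ptgis, without an entry, was not searched. These are matches of letters and show no binding.

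Transgenic replicate 3 resembled the non-transgenic cultures more than its own group, and it is named beside each result. Whether its label is right could not be checked, because no probe set is known here to read the human transgene, so values with and without it are both given under that doubt. On the first principal component of the tested genes (65.0% of the variance), transgenic replicates 1, 2 and 3 lay at 38.4, 66.6 and -30.2, and the non-transgenic arrays lay between -32.3 and -15.9. For the control transcript Gapdh the 3' over 5' signal, which reads RNA integrity, was 1.35, 1.20 and 1.44 on the transgenic arrays and 1.71, 1.55 and 1.51 on the non-transgenic arrays, without overlap. The median signal over probe sets was 173 to 186 on the transgenic and 219.9 to 223 on the non-transgenic arrays. Levels below are MAS5 signals as deposited. Each difference is the transgenic mean less the non-transgenic mean of log2(signal + 16), a scale that understates changes of dim probe sets, with limma's standard error (SE). The 3 arrays per group limit the precision of each.

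By the brightest probe set, Ptgs2, Ptgir, Ptger4, Ptgis and Pla2g4a averaged higher in the transgenic cultures and Tbxa2r lower, but no member passed the test over all arrays. Ptges averaged lower on its brightest probe set and higher on its others, so it is given no direction. The largest difference was that of Ptgs2, at 1.48 ± 0.80 (SE, n = 3 per group), a 2.78-fold higher level. Ptgis was the 1 gene of the 7 tested in which all 3 transgenic cultures lay above all 3 non-transgenic ones. On the brightest probe set of all 7, transgenic replicates 1 and 2 lay beyond the non-transgenic range on the same side, 5 genes above it and 2, Tbxa2r and Ptges, below it. Transgenic replicate 3 shared that side for Ptgis, lay inside the range for Ptges, Ptgir and Pla2g4a, and lay beyond the range on the opposite side for Ptgs2, Ptger4 and Tbxa2r.

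With Benjamini-Hochberg adjustment at 0.05, limma called 0 of the 7 members and 0 of 11208 genes tested (0%). An unadjusted p under 0.05 was reached by 1 member, Ptgis, against 11.5% of all tested genes. The groups did not overlap for 1 of 7 members, against 16.1% of the tested genes (9.39% higher and 6.72% lower in all 3 transgenic cultures). Replicates 1 and 2 were both beyond the non-transgenic range on one side for 50.2% of the tested genes. Of those 5624 genes, replicate 3 lay on the same side for 32.1%, inside the range for 37.5% and on the opposite side for 30.4%. Without transgenic replicate 3, limma called 2 of the 7 members, Ptgs2 higher and Tbxa2r lower, against 14.7% of all tested genes (6.88% higher and 7.83% lower). With every probe set tested on its own, limma called 0 of the 13 member probe sets over all arrays, against 0% of 45037, and 2 without transgenic replicate 3, against 7.27%. With arrays weighted by their fit, limma called 7 of the 7 genes, against 49.1% of all tested genes, and 2 of the 13 probe sets, against 12.1%. In the gene fit those weights lay mostly on transgenic replicate 1 and non-transgenic replicate 2.

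**Figure D1:**
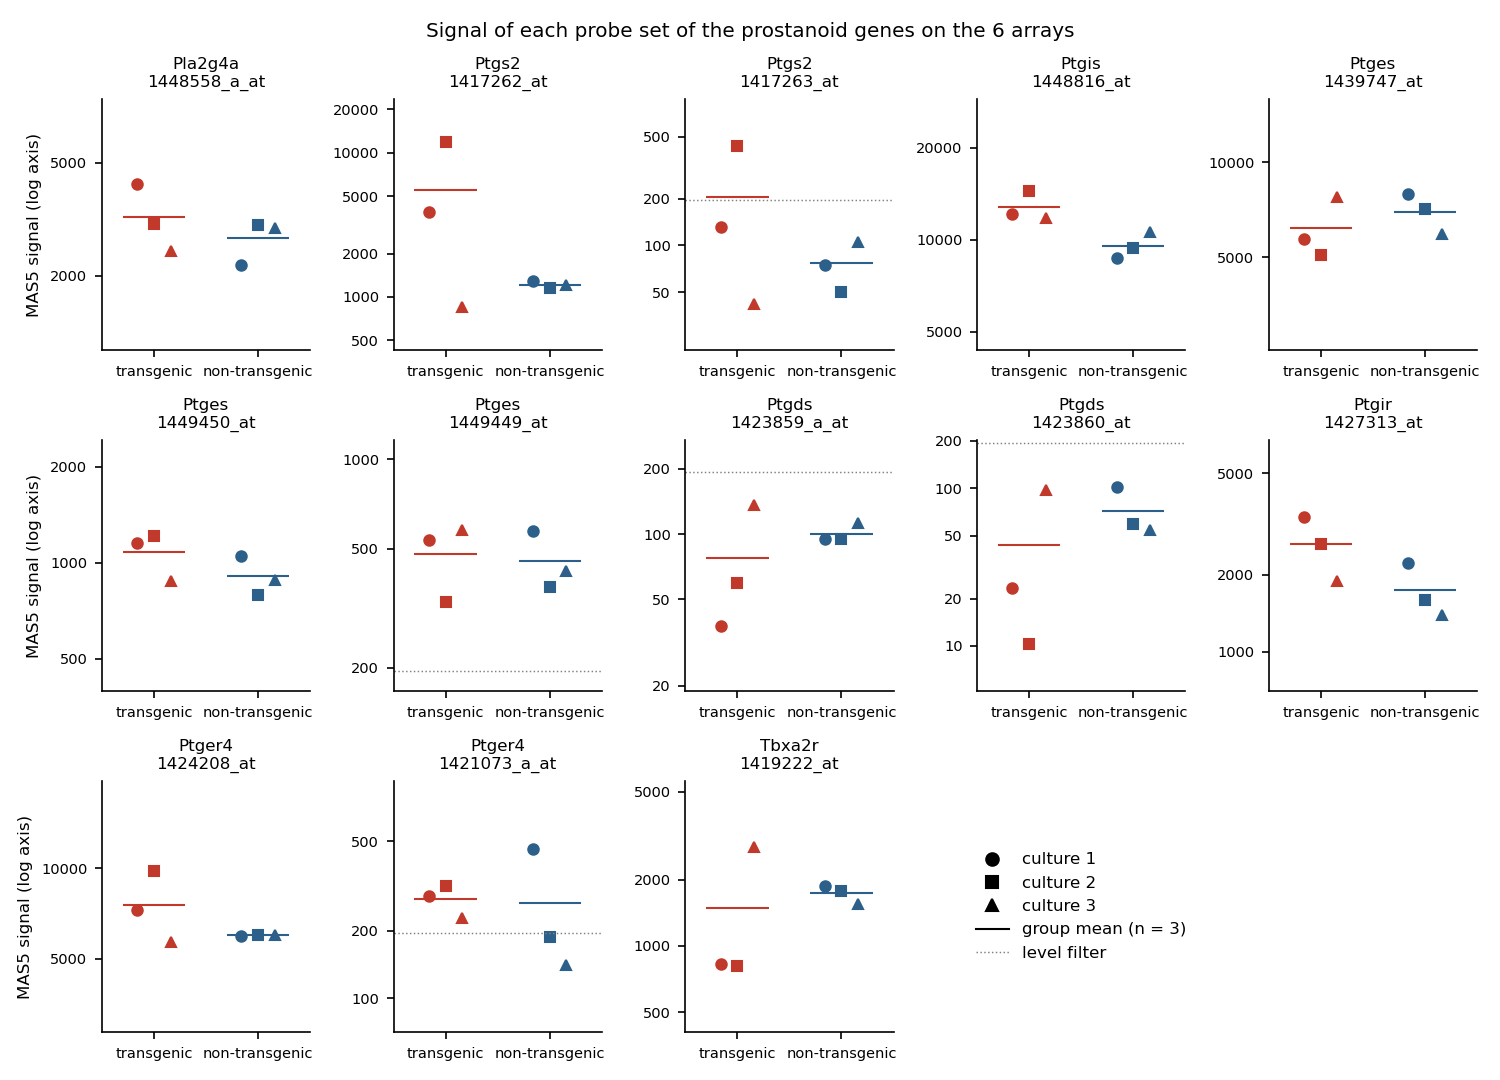
MAS5 signal (log axis) of the 13 probe sets, with transgenic cultures in red on the left and non-transgenic cultures in blue on the right, 1 point per culture and a line at the mean of 3. The transgenic cultures 1 and 2 of Ptgs2 lay at 3875 and 11828 on the brightest probe set, while culture 3, at 850.2, lay under all 3 non-transgenic cultures. The dotted line is the level filter where it falls in the panel.

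The first step of the pathway, release of arachidonic acid, was read by 1 probe set of Pla2g4a. Its signal was 4193, 3027 and 2439 in transgenic replicates 1, 2 and 3, against 2179, 3022 and 2946 in non-transgenic replicates 1, 2 and 3. Transgenic replicate 1 alone stood clear of the non-transgenic range, and replicate 2 exceeded its upper end only narrowly. The difference of 0.22 ± 0.25 (limma adjusted p = 0.723) was smaller than its SE, and it was 0.02 without transgenic replicate 1. In the mouse genome annotation Pla2g4a and Ptgs2 are neighbours on chromosome 1, with 0 protein-coding genes between them.

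Ptgs2, the inducible cyclooxygenase, gave signals of 3875, 11828 and 850.2 in transgenic replicates 1 to 3, against 1285, 1145 and 1212 in the non-transgenic cultures. The non-transgenic cultures lay close together, at 1214 ± 69.98 (SD, n = 3), whereas the transgenic cultures averaged 5518 with an SD of 5670.2. Relative to the non-transgenic mean, the signals of transgenic replicates 1, 2 and 3 were 3.19, 9.74 and 0.7 times as high. The groups thus overlapped, since replicate 3 was the lowest of all 6 cultures. A second, dimmer probe set of Ptgs2, with a mean under the filter, placed the transgenic cultures likewise, with replicates 1 and 2 above and replicate 3 below the non-transgenic range. It read 132, 438 and 42.1 in transgenic replicates 1 to 3, against 75.2, 49.8 and 105 in the non-transgenic cultures.

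The difference of Ptgs2 was not significant over all arrays (1.48 ± 0.80, limma adjusted p = 0.480). It was 2.47 ± 0.41 without transgenic replicate 3, a 5.52-fold higher level with a limma adjusted p of 0.0104, and 0.58 without transgenic replicate 2. The dimmer probe set differed by 0.81 ± 0.67 over all arrays (limma adjusted p = 0.617 over all probe sets) and by 1.53 ± 0.52 without transgenic replicate 3 (adjusted p = 0.114).

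The summed signal of leukocyte and macrophage markers, though not every marker, was highest in the culture where Ptgs2 was highest. Of 20 such markers, 6, 13 and 5 lay above the filter on transgenic arrays 1, 2 and 3, against 6, 5 and 6 on the non-transgenic arrays. Their summed signal was 12254, 23546 and 5981 on the transgenic arrays, against 5897, 4381 and 5026 on the non-transgenic arrays, and replicate 2 was highest in both this sum and Ptgs2. Without Csf1r, a choice made after the values were seen, the sums were 10184, 22127 and 4457 on the transgenic arrays, against 5421, 3862 and 4650.4 on the non-transgenic arrays, and the groups overlapped. Cd53 (10003) and Lyz2 (5959.5) made up most of the sum in replicate 2, whereas Cd14 (462) and Coro1a (379.9) were lowest there. On all 6 arrays 7 of the 20 stayed under the filter, among them Ptprc, which marks all leukocytes, at 41.0 to 43.4 in transgenic and 46.4 to 187 in non-transgenic cultures. The part of such cells in the Ptgs2 signal was not tested. In RNA of whole cultures, fewer cells of a type and less RNA per cell cannot be told apart.

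Among the terminal synthases, Ptgis, which makes prostacyclin, was higher in every transgenic culture. Its signal was 12157.5, 14437 and 11787 in transgenic replicates 1 to 3, against 8676, 9364 and 10627 in the non-transgenic cultures. This is the one member whose groups were separate, with transgenic replicate 3 nearest to the non-transgenic range. The group means were 12794 ± 1435 and 9556 ± 989 (SD, n = 3 each). The difference was 0.42 ± 0.14, a 1.34-fold higher level, and did not pass (unadjusted p = 0.0168, limma adjusted p = 0.428). It ranged from 0.33 without transgenic replicate 2 to 0.50 without non-transgenic replicate 3, whereas that of Ptgs2 ranged from 0.58 to 2.47.

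Ptges, the inducible prostaglandin E synthase that often accompanies Ptgs2, was read by 3 probe sets that disagreed. The brightest gave 5697, 5081 and 7732.5 in transgenic replicates 1 to 3, against 7921.5, 7086 and 5917 in the non-transgenic cultures. The next gave 1153, 1212 and 876 in the transgenic cultures, against 1051, 791 and 880.0 in the non-transgenic cultures. So replicates 1 and 2 were both lower than every non-transgenic culture on the brightest probe set and both higher on the second. The third lay at 534, 333 and 580 in the transgenic cultures, against 573, 374 and 423 in the non-transgenic cultures. The differences were -0.19 ± 0.20, 0.24 ± 0.24 and 0.06 ± 0.32 (limma adjusted p = 0.704 for the first over genes, and 0.686 and 0.952 for the others over all probe sets). Averaged over its probe sets the gene differed by 0.04, and no direction is given for it.

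Ptgds, the lipocalin-type prostaglandin D synthase, was dim on both of its probe sets, which lay under the filter on all arrays. One read 37.6, 59.2 and 136 in transgenic replicates 1 to 3, against 94.5, 94.7 and 112 in the non-transgenic cultures. The other read 23.2, 10.3 and 97.7 in the transgenic cultures, against 101.4, 59.5 and 54.2 in the non-transgenic cultures. On both, replicates 1 and 2 lay below every non-transgenic culture and replicate 3 did not. The differences were -0.45 ± 0.42 and -0.80 ± 0.54 (limma adjusted p = 0.661 and 0.533 over all probe sets).

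**Figure D2:**
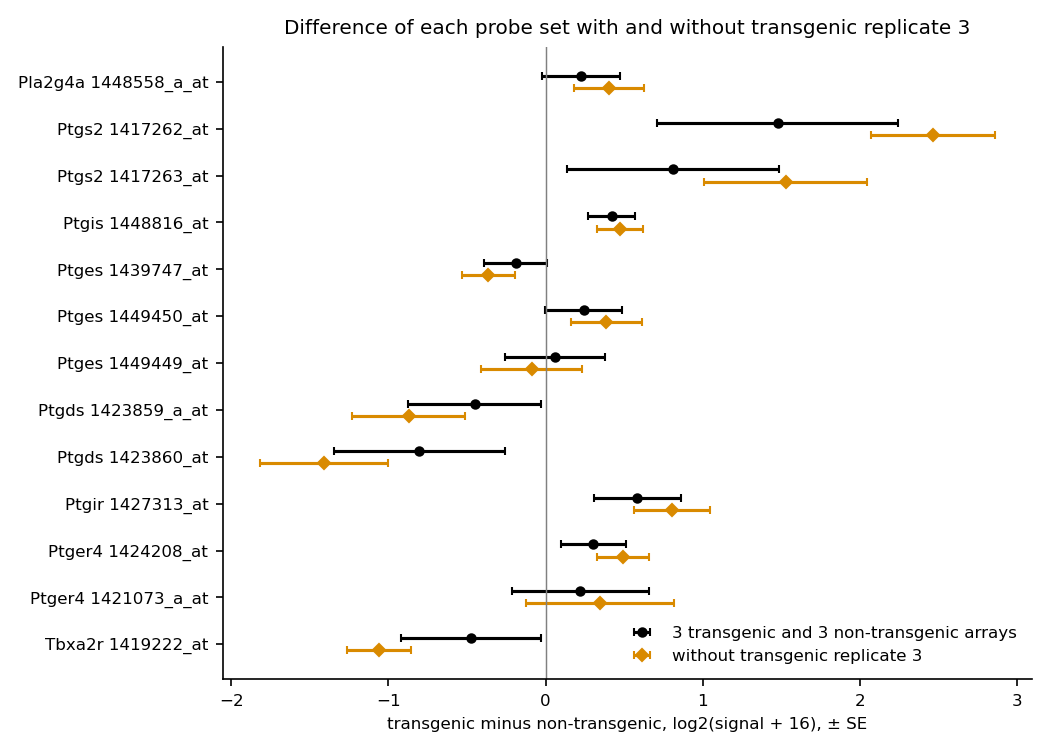
Difference in mean log2(signal + 16) of each probe set, the transgenic less the non-transgenic mean, with limma's SE, over all 6 arrays (circles) and without transgenic replicate 3 (diamonds). Leaving that culture out moved the brightest probe set of Ptgs2 to 2.47 and Tbxa2r to -1.06, and left Ptgis near its value of 0.42, at 0.48.

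Of the receptors, Ptgir, which binds prostacyclin, gave 3381, 2649.5 and 1887 in transgenic replicates 1 to 3, against 2229, 1599 and 1398.5 in the non-transgenic cultures. Replicates 1 and 2 lay above the non-transgenic range and replicate 3 within it. The difference of 0.58 ± 0.28, a 1.498-fold higher level, did not pass (unadjusted p = 0.0759, limma adjusted p = 0.451). It was 0.39 without transgenic replicate 1 and 0.80 ± 0.25 without transgenic replicate 3 (limma adjusted p = 0.0679).

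Ptger4, a receptor of prostaglandin E2, gave 7259, 9792 and 5679 on its brighter probe set in transgenic replicates 1 to 3, against 5944, 6008 and 6001 in the non-transgenic cultures. The non-transgenic cultures were almost equal, at 5985 ± 35.0 (SD, n = 3), and replicate 3 lay just under them. The difference was 0.30 ± 0.20 (limma adjusted p = 0.550), 0.10 without transgenic replicate 2 and 0.49 ± 0.16 without replicate 3 (adjusted p = 0.0784). The dimmer probe set read 286, 315 and 227 in the transgenic cultures, inside the non-transgenic readings of 464, 188 and 141.

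Tbxa2r, the thromboxane receptor, ran opposite to these receptors. Its signal was 827, 810 and 2802 in transgenic replicates 1 to 3, against 1873, 1771 and 1548.5 in the non-transgenic cultures. Replicates 1 and 2 were at 0.478 and 0.468 of the non-transgenic mean and replicate 3 at 1.62 times it, the highest of all cultures. The difference of -0.48 ± 0.47 was not significant over all arrays (limma adjusted p = 0.679). Without transgenic replicate 3 it was -1.06 ± 0.21, a 2.09-fold lower level (limma adjusted p = 0.0172), and without transgenic replicate 2 it was -0.18.

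With the Gapdh 3' to 5' ratio as a covariate, 5 of the 7 differences changed sign: Ptgs2 to -0.70, Ptges to 0.36, Ptger4 to -0.18, Tbxa2r to 0.63 and Pla2g4a to -0.17. Ptgir kept its sign, at 0.70 ± 0.50, and Ptgis did too but at 0.10 ± 0.19 (limma adjusted p = 0.913), against 0.42 without the covariate. None of the 7 passed in that fit, and the ratio itself did not overlap between the groups, as given above. The beta-actin ratio overlapped, at 1.74, 1.40 and 2.21 in transgenic replicates 1 to 3, against 2.17, 2.00 and 1.83 in the non-transgenic cultures, and was highest in transgenic replicate 3. With it as the covariate no sign turned and none of the 7 passed, but Ptgs2 differed by 0.61 ± 0.40, Tbxa2r by -0.0243 ± 0.29, Ptges by -0.00697 ± 0.13, Ptger4 by 0.12 ± 0.14 and Pla2g4a by 0.0957 ± 0.24. The part of RNA integrity in these differences was not tested further.

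The genes with the profile most like that of Ptgs2 over the 6 arrays, among tested genes outside the 9, were Dck, which phosphorylates deoxycytidine, Jpt2 and Mdm2, the ubiquitin ligase of p53. For Tbxa2r they were the phospholipid synthesis enzyme Cds2, Zfp629 and Abcc4, a pump that exports prostanoids and cyclic nucleotides. Likeness was the correlation of log2 values over 6 arrays that lie in separate clusters, so that 223 tested genes for Ptgs2 and 312 for Tbxa2r reached 0.95, and no coefficient is given as a result. Mdm2 was also among the 3 genes most like Ptger4. Abcc4 had signals of 720.5, 688.5 and 2039 in transgenic replicates 1 to 3, against 1546, 1455 and 1332.5 in the non-transgenic cultures. Like Tbxa2r, it was lowest in replicates 1 and 2 and highest in replicate 3.

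Beyond the 9 genes, 7 lists cover the rest of the pathway and its signalling, with 43 genes tested. Over all arrays limma called 0 of the 43. An unadjusted p under 0.05 was reached by 11 of them, against 11.5% of all tested genes, and the groups did not overlap for 4 that lay higher and 2 that lay lower, against 16.1% for both directions together. Their median difference was 0.01, against -0.02 for all tested genes and 0.30 for the 7 members. Without transgenic replicate 3, limma called 7 of the 43 higher and 1 lower, against 6.88% and 7.83% of all tested genes.

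Other phospholipases A2 were mostly dim, with 4 of 10 measured genes tested and 0 called. The secreted enzyme Pla2g2e differed by 1.54 ± 0.61 and the cytosolic Pla2g4c by -0.74 ± 0.36 (limma adjusted p = 0.428 and 0.451). Pla2g4c read 260.2, 178 and 401 in the transgenic cultures, against 499, 541 and 349 in the non-transgenic cultures, its other probe set above the filter ran the opposite way, and without transgenic replicate 3 the difference was -1.03. Pla2g2e read 681, 681 and 245 in the transgenic cultures, against 386, 93.0 and 100.6 in the non-transgenic cultures, so that replicate 3 lay inside the non-transgenic range. Without that culture Pla2g2e passed, at 2.02 ± 0.55 (limma adjusted p = 0.0475). Its non-transgenic readings of 93.0 and 100.6 lay under the filter signal of 194, and the higher transgenic readings brought its mean to the filter.

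Among the other synthases, 4 of 6 measured genes were tested and 0 called. Akr1c18, a mouse aldo-keto reductase that inactivates progesterone and can also act on prostaglandins, gave 4771, 6971 and 315 in transgenic replicates 1 to 3, against 418.5, 187 and 89.3 in the non-transgenic cultures. Replicates 1 and 2 stood far above and replicate 3 within the non-transgenic range. Its difference of 3.41 ± 1.10 did not pass (limma adjusted p = 0.428) and was 4.78 ± 0.53 without transgenic replicate 3 (adjusted p = 0.00406). Its non-transgenic readings of 187 and 89.3 lay under the filter signal of 194. The high transgenic readings raised the mean that the filter used, so the call on those same arrays is no separate support. Prxl2b, a peroxiredoxin-like prostaglandin F synthase, lay higher in all 3 transgenic cultures, at 3268, 2663 and 2962, against 1909, 2038 and 2364 in the non-transgenic cultures (0.49 ± 0.19, limma adjusted p = 0.428). The second prostaglandin E synthase Ptges2 and the carbonyl reductase Cbr1, which converts prostaglandin E2, differed by 0.01 ± 0.35 and -0.14 ± 0.18.

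Thromboxane synthase, Tbxas1, gave 200, 190 and 195 in the transgenic cultures, against 26.5, 118 and 98.5 in the non-transgenic cultures. Its mean lay under the filter, so it was not tested, and no share of separate groups is given for such genes. The haematopoietic prostaglandin D synthase Hpgds read 81.7, 74.3 and 37.3 in the transgenic cultures, against 53.7, 175 and 83.3 in the non-transgenic cultures. Both are known from macrophages or other blood cells, whose markers are given above and whose part in these values was not tested.

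Of the other receptors, none of the 6 G protein-coupled ones had a mean over the 6 arrays at the filter, although Ptger3 and Ptgfr exceeded it on some arrays. Ptger3, a prostaglandin E2 receptor that lowers cyclic AMP, read 93.1, 71.3 and 78.9 in the transgenic cultures, against 218, 458 and 214 in the non-transgenic cultures, and was not tested. The prostaglandin F receptor Ptgfr read 268, 327 and 99.3 in the transgenic cultures, against 138, 117.5 and 139 in the non-transgenic cultures. Ptger1 and Ptger2 overlapped between groups at 44.1 to 125 in transgenic and 43.1 to 121 in non-transgenic cultures. Ptgfrn, a membrane protein that restrains prostaglandin F binding to its receptor, was the 1 gene of this list tested, at 0.68 ± 0.27 (limma adjusted p = 0.428).

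Of 4 tested genes of transport and breakdown, 1 had separate groups, against 16.1% of all tested genes. Ptgr1, a reductase that inactivates prostaglandins and leukotriene B4, gave 11863, 11082 and 7253 in the transgenic cultures, against 5716, 5949 and 6963.5 in the non-transgenic cultures. All 3 transgenic cultures were higher, replicate 3 by little. Its difference was 0.67 ± 0.21 (limma adjusted p = 0.428) and 0.89 ± 0.14 without transgenic replicate 3 (adjusted p = 0.00954). The prostaglandin uptake carrier Slco2a1 gave 4870.4, 7452 and 4216 in the transgenic cultures, against 4717, 1932 and 1605.5 in the non-transgenic cultures (1.12 ± 0.41, limma adjusted p = 0.428). The exporter Abcc4, described above, differed by -0.51 ± 0.42 and passed without transgenic replicate 3, at -1.02 ± 0.21 (limma adjusted p = 0.0202). Ptgr2 differed by -0.04 ± 0.16, and the degrading enzyme Hpgd stayed under the filter, at 21.5 to 62.6 in transgenic and 13.1 to 135 in non-transgenic cultures.

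Of 17 genes of Gs and cyclic AMP signalling, through which Ptgir and Ptger4 act, all were tested and 0 called, with 8 differences above 0 and 9 below. The adenylyl cyclase Adcy7 lay higher in all 3 transgenic cultures, at 5159, 11168 and 5837, against 3322, 3905 and 4087 in the non-transgenic cultures (0.89 ± 0.29, limma adjusted p = 0.428). The transcription factor Creb1 differed by -0.82 ± 0.32 (adjusted p = 0.428), with 2 of its 4 probe sets above the filter in the opposite direction. Without transgenic replicate 3, 1 of the 17 passed, against 14.7% of all tested genes. That was the cyclic AMP phosphodiesterase Pde4b, at 1.52 ± 0.27 (limma adjusted p = 0.0128). It was named after its values were seen. Of the lipoxygenase and leukotriene genes 1 of 10 was tested, the hydrolase Lta4h, at 0.11 ± 0.19, and the others had means under the filter.

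Of genes tied to the inflammatory induction of Ptgs2, 12 of 14 measured were tested and 0 called, with 5 differences above 0 and 7 below. The chemokine Ccl2 differed by 1.47 ± 0.46 and Cxcl1 by 0.78 ± 0.28 (limma adjusted p = 0.428 each). Cxcl1 read 4174, 3176.5 and 2254 in the transgenic cultures, against 1503.5, 2212 and 1758 in the non-transgenic cultures, and so was separate between groups. Il6, named after its values were seen, gave 585, 1033 and 59.6 in the transgenic cultures, against 114, 106 and 110 in the non-transgenic cultures. This is the order of Ptgs2, with replicate 3 the lowest of all 6. Without transgenic replicate 3, limma called 3 of the 12, all higher, against 6.88% of all tested genes called higher. These were Il6 at 2.66 ± 0.33, Ccl2 at 1.95 ± 0.33 and Cxcl1 at 1.01 ± 0.23 (adjusted p = 0.00491, 0.0106 and 0.0276). Il6 read under the filter signal of 194 in transgenic replicate 3 and in all non-transgenic cultures. It reached the test only through transgenic replicates 1 and 2, so its call on those same arrays is no separate support. The inhibitor Nfkbia, also named after its values were seen, lay lower in all 3 transgenic cultures, at 21553, 15097 and 22932, against 25415, 25013 and 27894 in the non-transgenic cultures (-0.42 ± 0.16, limma adjusted p = 0.428). The inducing cytokines Il1b and Tnf stayed under the filter on all arrays.

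**Figure D3:**
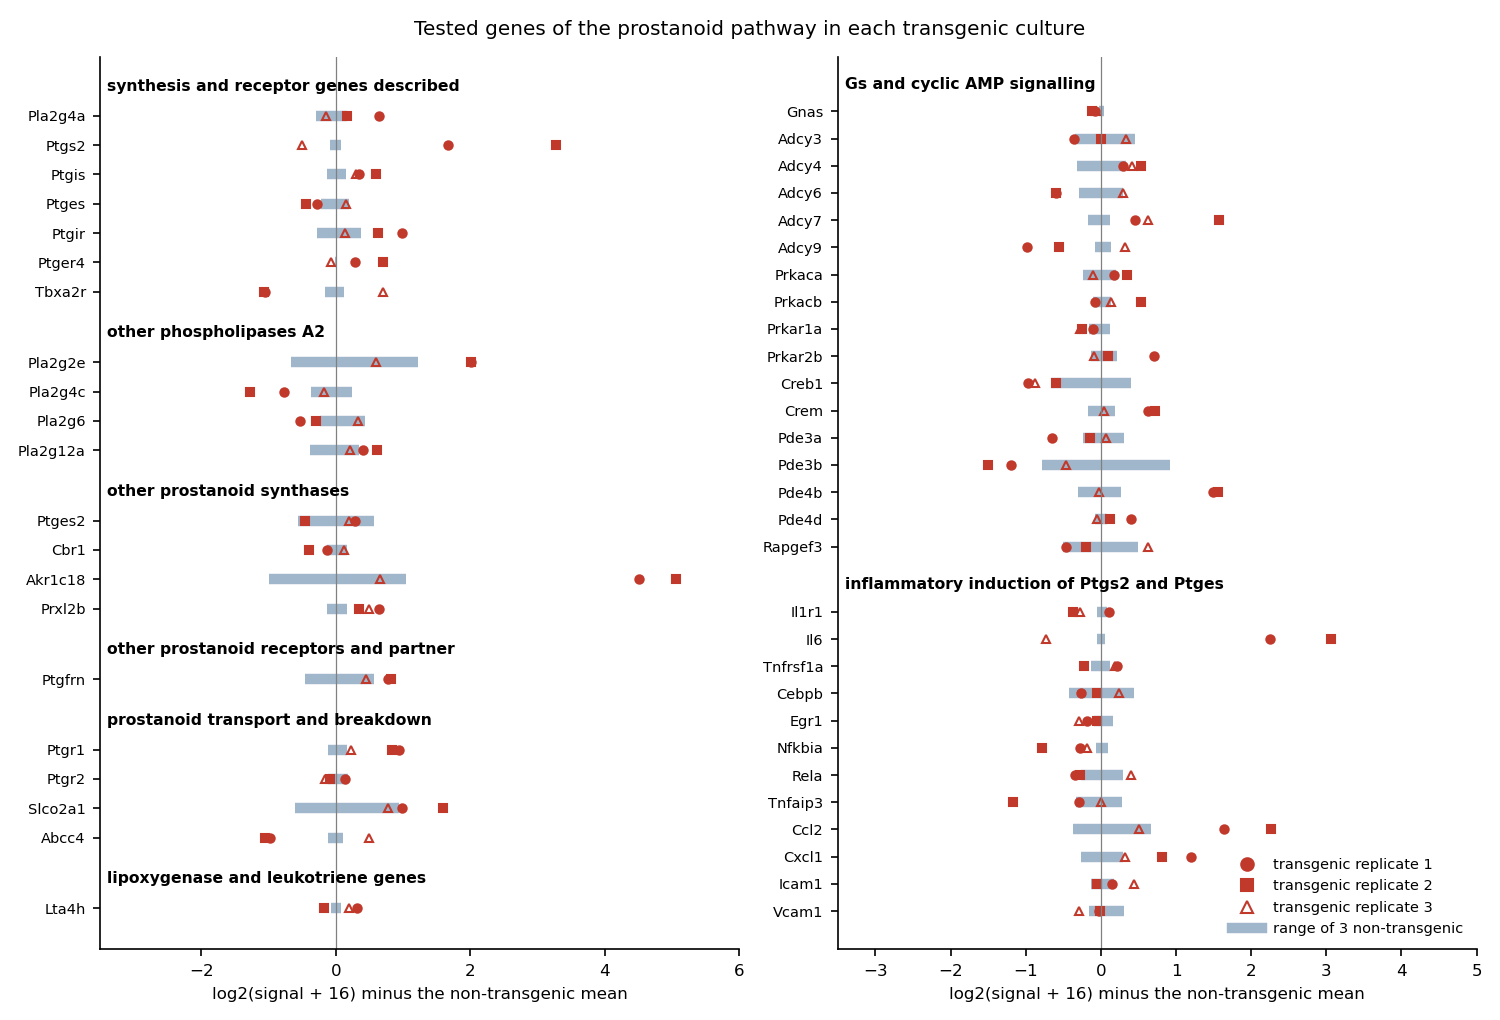
Level of each tested gene in transgenic replicates 1 (circle), 2 (square) and 3 (open triangle) as log2(signal + 16) minus the non-transgenic mean, with the range of the 3 non-transgenic cultures as a blue bar. Each gene is its brightest probe set. Replicates 1 and 2 lay beyond the bar on one side for all 7 synthesis and receptor genes described, and for 50.2% of all tested genes. For Akr1c18 and Il6 those cultures lay far above it while replicate 3 lay inside or below.

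The labelled cell type was checked against its markers, since prostacyclin synthesis is shared by endothelium, smooth muscle and fibroblasts. Of 20 endothelial markers, 8 lay above the filter on average and 11 lay under it on all 6 arrays, among them Cdh5, at 31.1 to 95.9 in transgenic and 91.1 to 130 in non-transgenic cultures, and Pecam1 and Nos3. All 20 fibroblast markers and 8 of 13 measured smooth muscle markers lay above it on average. The markers thus did not bear out the label of endothelial cells, although 8 of that list lay above the filter on average. The transgene is driven by the CDH5 promoter, and Cdh5 itself stayed under the filter on all 6 arrays. Whether these cultures expressed the transgene was not tested. The summed signal of endothelial markers was 15168 to 20715 in transgenic and 13909 to 18686 in non-transgenic cultures, and that of smooth muscle markers 29020.0 to 38088 in transgenic and 25901 to 41881 in non-transgenic cultures. The fibroblast sum was 290007 to 314113 in transgenic and 309014 to 347812 in non-transgenic cultures. Mesothelial and epithelial markers, 6 of 11 above the filter, summed to 2748 to 6721 in transgenic and 2835 to 6164 in non-transgenic cultures. Adipocyte markers, 7 of 9 above the filter, summed to 29143 to 55397 in transgenic and 67018 to 106182 in non-transgenic cultures, without overlap. Among those 7, Lpl and Slc2a4 were lower in all transgenic cultures, whereas Adipoq, Cidec, Fabp4, Pnpla2 and Retn overlapped between groups. The part of these cell types in the members' values was not tested.

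**Figure D4:**
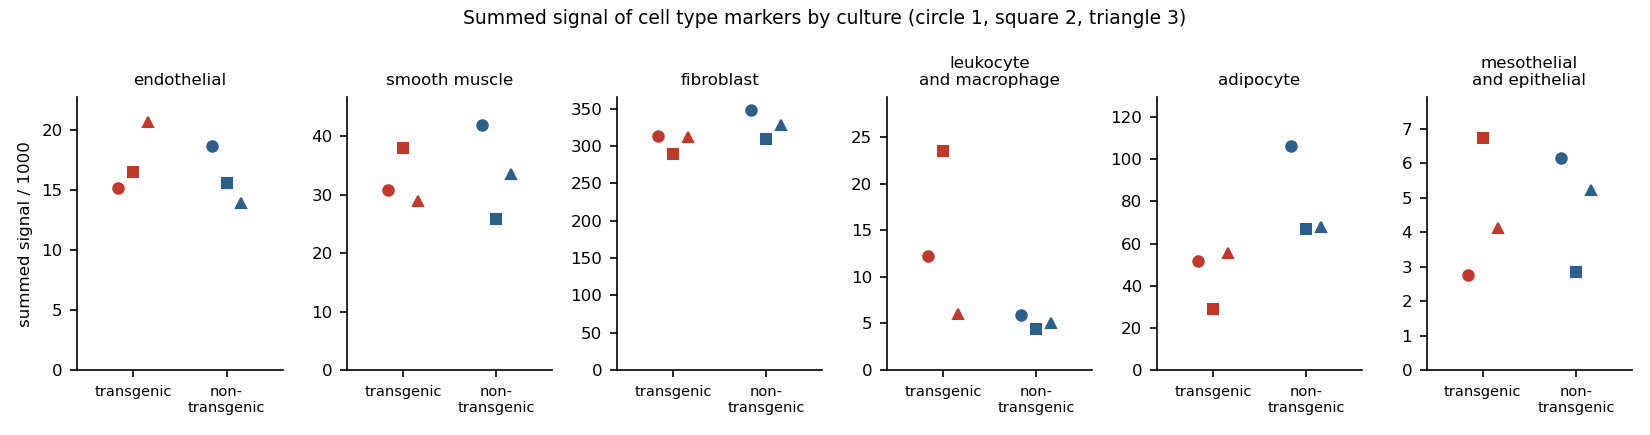
Summed signal of the measured markers of 6 cell types on each array, transgenic in red on the left and non-transgenic in blue on the right. The leukocyte and macrophage sum was highest in transgenic replicate 2, at 23546, and the adipocyte sum lowest there, at 29143.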

How the data were processed

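RNA of 6 cultures was measured on Affymetrix arrays, 3 per group. Sample titles gave the groups and replicate numbers. Deposited values are linear intensities, 1 for each probe set on each array. The submitters' processing notes name MAS5 (version not given in the sources used here). About 50 ng of total RNA was amplified in 2 steps, as the series' design text says, and signal far from the 3' end can drop where RNA is degraded. Intensities ran from 0.1 to 67821.8 and were kept as scaled. Arrays shared at most 0.142% identical values. Detection calls were not used.

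Probe sets were named from the array annotation, where 34945 had 1 gene, 932 several (not named) and 9160 no listed gene. Gene identifiers gave current symbols from RefSeq's GRCm38.p6 table. Values were computed as log2(intensity + 16). In the gene fit each of 18193 genes was its brightest probe set, and 11208 with a mean of at least 7.72 were tested. In the probe set fit all 45037 probe sets that are not controls were tested without a filter. The test was limma 3.58.1 in R 4.3.3 (lmFit, eBayes with a trend, two-sided) with Benjamini-Hochberg adjustment at 0.05, and was tested on simulated data. Those data had equal noise on every array, so they do not cover a culture that departs from its group. Named genes are the 9 members, the 2 genes with the smallest p per pathway list, and any of the small synthase, receptor and transport lists. For each tested member the 3 genes with the highest correlation were taken.

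The members and lists were chosen with earlier results of these data known. Replicates are separate cultures. Same-numbered cultures did not deviate together (correlations of 0.0421, -0.278 and -0.0336 over 11208 genes). Alternatives were pseudocounts, filters, scalings, variance settings, probe set rules, the replicate block, the 3' to 5' ratios as covariates and each array left out.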

Additional observations from a re-analysis of the deposited data

How the results depend on the processing

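Of the 7 member genes, limma called 0 under each setting but array weights, which called 7 of 7 (against 49.1% of all tested genes), and the fit without transgenic replicate 3. Leaving out 1 culture gave 0 to 2 member genes, 0 to 2 member probe sets and 0 to 1649 of all genes, the higher counts all without transgenic replicate 3. Array weights called 5504 genes and 2 member probe sets. In the gene fit they gave the highest weights to transgenic replicate 1 (5.24) and non-transgenic replicate 2 (4.65). Transgenic replicates 2 and 3 had weights of 0.349 and 0.177, and non-transgenic replicates 1 and 3 had 0.553 and 1.20. The weighted calls of genes thus rest mainly on 1 culture per group. With the replicate block limma called 0 members and 0 genes, and the differences equalled those without it, because the numbers are balanced over the groups. Not every culture resembled its own number best, for transgenic replicate 3 correlated best with non-transgenic replicate 2, at 0.305. Signs turned with the Gapdh ratio as a covariate for Ptgs2 (-0.70, and -1.06 on its dim probe set), Ptges (0.36), Ptger4 (-0.18), Tbxa2r (0.63), Pla2g4a (-0.17) and the dimmer probe set of Ptgds (0.84), and the cause was not tested. Ptges also turned with medians made equal (0.0793) and with probe sets averaged (0.0382). Equal medians moved the median difference of all tested genes to 0.25, against -0.02 as deposited, so Ptges still lay under it. The other members moved up as well, to 1.74 for Ptgs2, 0.69 for Ptgis, 0.85 for Ptgir, 0.57 for Ptger4, 0.49 for Pla2g4a and -0.21 for Tbxa2r. None of the 7 passed, and Ptgis had a limma adjusted p of 0.0961. Among the dimmer probe sets, the third of Ptges ranged from -0.0871 to 0.299 and the second of Ptger4 from -0.111 to 0.695 when 1 culture was left out. The other alternatives kept every member's sign.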
